A study of Arabidopsis thaliana with 24 samples.

Results

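The transcripts of 31 genes of aliphatic glucosinolate synthesis were followed in whole seedlings of Arabidopsis thaliana, out of 33612 genes listed in the deposited tables. The genes were chosen by identifier as a pathway: 9 of chain elongation, 11 of the core structure, 8 of side-chain change and 3 transcription factors. All 31 were found, and 30 had enough counts to be tested. Messenger RNA of 9-day-old seedlings was sequenced in 4 genotypes with 3 biological replicates each. The groups were the wild type (WT), pkl (given as pkl-1 in the genotype label), pif4 (allele not given) and pklpif4 (given as pkl-1pif4), which by its label carries both mutations. By their labels all 12 libraries came from plants in continuous white light, with the number 28 and the unit "tm" in the same label. Deposited tables named for a red-light experiment hold identical values under column names that carry both conditions, so the white light of the values given here rests on the labels, and red light cannot be told apart from it with these tables. PKL is a CHD3-type chromatin remodeller, and PIF4 is a bHLH factor that drives elongation growth. The effect of a mutation and any further difference between lines cannot be told apart.

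Aliphatic glucosinolates are sulfur-rich defence compounds of the cabbage order, made from methionine, and damage to the tissue lets myrosinases break them into isothiocyanates and related products. Methionine is first lengthened in cycles that resemble leucine synthesis, then turned into the core structure by a chain of cytochromes P450, glutathione conjugation, a C-S lyase, a glucosyltransferase and sulfotransferases. The side chain is changed last. The R2R3-MYB factors MYB28, MYB29 and MYB76 activate most of these steps, together with MYC bHLH factors, while a parallel indolic branch starts from tryptophan and shares the middle enzymes. Much of the pathway is active in vascular and leaf tissue.

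Library totals ran from 37762216 to 56492669 counts. The PKL transcript (AT2G25170) was 21.6 ± 0.928 FPKM in WT and 23.9 ± 0.93 in pkl (FPKM is counts scaled to exon length and library total, mean ± SD, n = 3), a log2 change of 0.08 ± 0.04 (adjusted p = 0.0547). In the pklpif4-labelled libraries it was 23.5 ± 0.6 FPKM, or 0.10 ± 0.04 (adjusted p = 0.0121), so neither group that carries the pkl label had less of it. PIF4 (AT2G43010) was 56 ± 2.52 FPKM in WT, 38.5 ± 1.71 in pkl, 99.7 ± 1.88 in the libraries labelled pif4 and 83.9 ± 0.731 in those labelled pklpif4. It was below WT in pkl alone (-0.61 ± 0.03, adjusted p = 2.33e-31). Because this transcript was higher, not lower, in the libraries labelled as mutant for it, those groups are called pif4-labelled and pklpif4-labelled, and every direction drawn from them, or from the pkl label, rests on the labels. The summed level of 13 root markers was 82.8 to 86.5 FPKM in WT libraries, 177 to 185 in those of pkl, 158 to 168 in pif4-labelled and 134 to 139 in pklpif4-labelled libraries. Of these markers the nitrate transporter gene NRT2.1 was at 0 to 6 counts in every library. Of the 12 that were tested, 10 were higher and 1 (SHR) lower than WT in pkl, all 12 were higher in pif4-labelled libraries, and 9 were higher and 2 (IRT1 and FRO2) lower in pklpif4-labelled libraries. The summed level of 10 leaf markers was 34701 to 35344 FPKM in WT libraries, 27258 to 28404 in those of pkl, 32553 to 32700.4 in pif4-labelled and 38240.5 to 39025 in pklpif4-labelled libraries. These leaf markers are genes of light-harvesting proteins, a photosystem I subunit and Rubisco small subunits, and the root list holds iron, nitrate and phosphate transporter genes among others. All 10 leaf markers were lower than WT in pkl, 8 were lower and 1 higher in pif4-labelled libraries, and 1 was lower and 6 higher in pklpif4-labelled ones. These counts are at an adjusted p under 0.05. At that threshold 27.1% of all 22130 genes tested were higher and 26.5% lower in pkl. The shares were 16.2% each way in pif4-labelled libraries, and 27.2% higher and 27.7% lower in pklpif4-labelled ones. The part of both marker lists in the results below was not tested. In whole seedlings, fewer cells of a type and less RNA per cell cannot be told apart.

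The pklpif4-labelled seedlings held the least aliphatic glucosinolate mRNA of the 4 genotypes. Of the 30 tested members, 27 were lower there than in WT and 1, MAM3, was higher, at a Benjamini-Hochberg adjusted p under 0.05 (edgeR quasi-likelihood test, as throughout). Among all 22130 genes tested, 27.7% were called lower and 27.2% higher in that comparison. With a change of at least 2-fold also required, 18 members were lower, against 4.66% of all genes. The median log2 change of the members was -1.94, and it was -0.00 over all genes. Every library of the pklpif4-labelled group lay below every WT library for 27 of the 31 members and above for 2 (MAM3 and FMO-GS-OX4). FMO-GS-OX4 did so only by 8.03 against 8.02 FPKM and was not called (adjusted p = 0.381). For 22 members the pklpif4-labelled group was the lowest of the 4 genotypes with no overlap with any other. The share of all genes with ranges apart in this way was not computed, so these counts have no background to compare with.

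By the median over the members, falls were smaller in pkl and in the pif4-labelled libraries than in the pklpif4-labelled ones. In pkl, 19 members were lower than WT and 2 were higher, where 26.5% of all genes were called lower and 27.1% higher. At 2-fold, 13 members were lower in pkl, against 2.93% of all genes. In the pif4-labelled libraries 18 members were lower and 2 higher, where 16.2% of all genes were called lower and 16.2% higher. Only 4 members passed 2-fold in the lower direction there, against 2.33% of all genes. The median log2 change of the members was -0.49 in pkl and -0.29 in the pif4-labelled libraries, with 0.00 over all genes in both. These comparisons share the WT libraries. Scaled by library totals, 62.0% of the called genes were higher in pkl and 61.2% in the pif4-labelled libraries, against 50.5% and 50% with TMM factors, and 4 members in place of 2 were then higher in pkl. The pklpif4-labelled libraries were also set against each mutant. Against pkl, 25 members were lower and 0 higher at the adjusted threshold, with 20.5% of all genes called lower and 19.5% higher. The count of higher members was also 0 with DESeq2, and 1 member, BCAT3, was higher at an unadjusted p under 0.05. Against the pif4-labelled libraries 26 were lower and 1 higher, with 24.7% called lower and 25.5% higher. At 2-fold, 16 members were lower than in pkl and 19 lower than in the pif4-labelled libraries, against 3.59% and 3.66% of all genes.

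**Figure D1:**
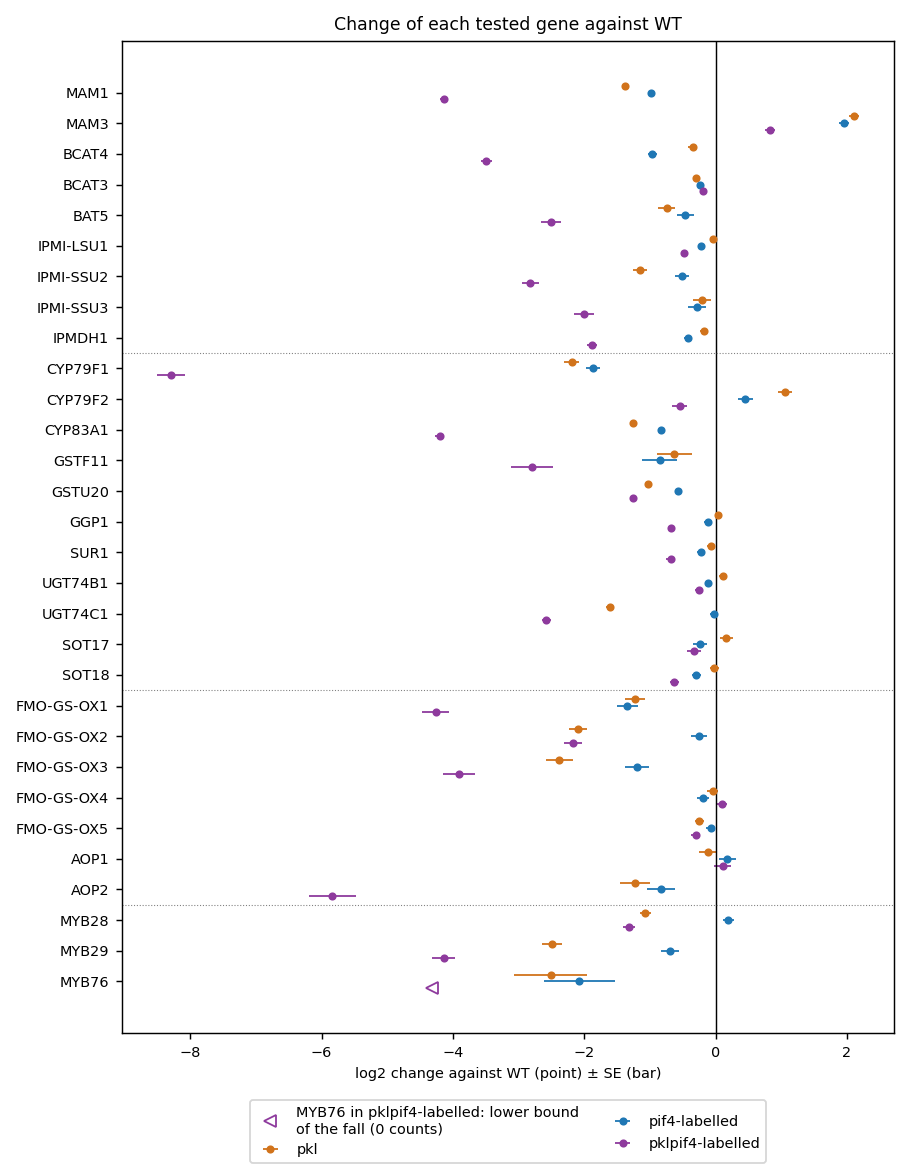
Log2 change against WT (horizontal axis, point, with ± SE as a bar) for each of the 30 tested genes (rows, grouped by pathway step between dotted lines), in pkl, the pif4-labelled and the pklpif4-labelled libraries. The open triangle marks MYB76 in the pklpif4-labelled libraries, which had 0 counts, at the smallest fall that the floor allows (log2 -4.31). The pklpif4-labelled points lie farthest left for most genes, with CYP79F1 at -8.29, while MAM3 lies right of 0 in all 3 groups.

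Both pkl and pklpif4-labelled libraries held less mRNA than WT of all 3 MYB factors, which switch the pathway on, each at least 2-fold, and their median log2 change in pkl was -2.49. At 2-fold, 2.93% of all genes were lower in pkl and 4.66% in pklpif4-labelled libraries. MYB28 (AT5G61420; TAIR10 chromosome 5, 24689151 to 24691095), the main activator together with MYB29, stood at 11.3, 9.89 and 11 FPKM in WT, 6.03, 5 and 4.98 in pkl, 11.3, 13.3 and 13.3 in pif4-labelled and 4.81, 3.8 and 4.5 in pklpif4-labelled libraries. The pkl and pklpif4-labelled libraries were low and the pif4-labelled ones lay just above WT. MYB28 fell in pkl by 1.07 ± 0.09 on the log2 scale (± SE; adjusted p = 3.74e-20) and in the pklpif4-labelled libraries by 1.32 ± 0.09 (adjusted p = 2.83e-25). Its change in the pif4-labelled libraries was 0.20 ± 0.08 (adjusted p = 0.0579), which did not pass, although it passed with library totals (0.23), with no filter (0.21), with halved counts (0.19) and without pif4-labelled replicate 1 (0.27). The pklpif4-labelled libraries were below pkl by -0.25 ± 0.10 (adjusted p = 0.0272), a call that was lost with DESeq2 (-0.25), with limma on FPKM (-0.24), without pkl replicate 1 (-0.15) and without pklpif4-labelled replicate 2 (-0.15).

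MYB29 (AT5G07690; chromosome 5, 2446764 to 2448543) stood at 6.81, 7.49 and 6.34 FPKM in WT, 1.4, 1.48 and 0.973 in pkl, 4.7, 4.41 and 3.98 in pif4-labelled and 0.327, 0.435 and 0.421 in pklpif4-labelled libraries. The 4 genotypes did not overlap, and they ran down from WT through the pif4-labelled and pkl to the pklpif4-labelled libraries. Its log2 change against WT was -2.49 ± 0.15 in pkl, -0.69 ± 0.13 in pif4-labelled (adjusted p = 7.67e-06) and -4.14 ± 0.18 in pklpif4-labelled libraries. MYB76 (AT5G07700; chromosome 5, 2450325 to 2451578), whose gene starts 1782 bases past the end of MYB29, was scarce, at 0.94, 0.857 and 0.755 FPKM in WT, 0.297, 0.0477 and 0.0939 in pkl, 0.148, 0.229 and 0.245 in pif4-labelled and 0 in each of the pklpif4-labelled libraries. It was highest in WT, low in both other groups with counts and had no count in any pklpif4-labelled library. With a floor of 6 counts over the group (3 fragments, counting error only), it was at least 19.8-fold lower there than in WT and at least 4.60-fold lower than in the pif4-labelled libraries. Against pkl the bound was 3.49-fold, which rests on pkl replicate 1: that library held 16 of the group's 22 counts, and without it 6 counts remain, which is the floor, so that no fold can be given. The fall in pkl was -2.51 ± 0.55 (adjusted p = 5.83e-05) and, without pkl replicate 1, -3.60. In the pif4-labelled libraries the change was -2.07 ± 0.54 (adjusted p = 0.00108). MYB29 and MYB76 are 78.1% identical over 954 aligned coding bases, with a longest shared run of 30 bases.

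**Figure D2:**
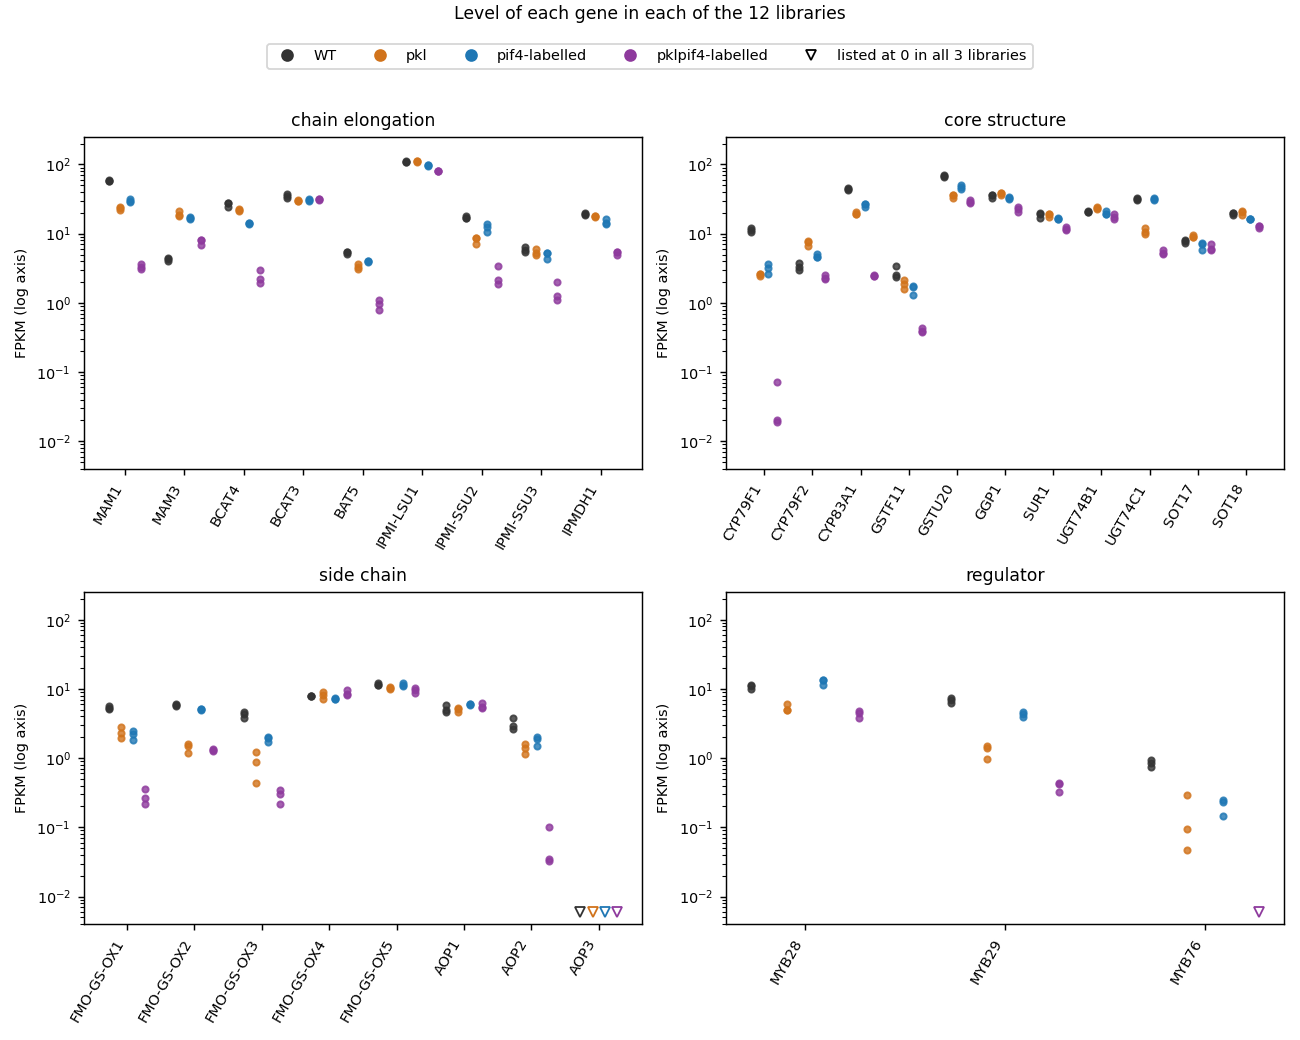
Level of each of the 31 genes (FPKM, vertical log axis) in each of the 12 libraries, coloured by genotype, with one panel for each pathway step. Open symbols at the bottom mark genes listed at 0 in all 3 libraries of a group, which are AOP3 in every group and MYB76 in the pklpif4-labelled one.

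Most chain elongation genes were strongly reduced in the pklpif4-labelled libraries. Of the 9 genes of this step, 8 were lower and 1 was higher than in WT, 6 of them at least 2-fold lower, with a median log2 change of -2.0. In pkl 6 were lower and 1 higher (median -0.30), and in the pif4-labelled libraries 7 were lower and 1 higher (median -0.42). Of all genes, 27.7% were lower and 27.2% higher in pklpif4-labelled, 26.5% and 27.1% in pkl, and 16.2% each way in pif4-labelled libraries. The share lower at 2-fold in pklpif4-labelled libraries was 4.66%. BCAT4 (AT3G19710; chromosome 3, 6846969 to 6849497), the aminotransferase that takes methionine into the pathway, stood at 27.5, 27.8 and 24.7 FPKM in WT, 21.6, 22.4 and 22 in pkl, 14.3, 13.8 and 14.1 in pif4-labelled and 1.93, 3.03 and 2.21 in pklpif4-labelled libraries. The groups did not overlap, and the pklpif4-labelled libraries lay far below the rest. The log2 change against WT was -0.35 ± 0.07 in pkl (adjusted p = 6.30e-06), -0.96 ± 0.07 in pif4-labelled and -3.49 ± 0.09 in pklpif4-labelled libraries. Its exons share 307 bases with AT3G19700 on the other strand, and the strand setting of the counting is not given in the sources used here.

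MAM1 (AT5G23010; chromosome 5, 7703092 to 7706896), the methylthioalkylmalate synthase that condenses the keto acid with acetyl-CoA for short chains, stood at 57, 57.9 and 59.6 FPKM in WT, 24.2, 22.2 and 23.6 in pkl, 31.5, 29.1 and 29.5 in pif4-labelled and 3.04, 3.61 and 3.35 in pklpif4-labelled libraries. It was lowered in both mutant groups and was lowest in the pklpif4-labelled libraries, with no overlap between any groups. Against WT it changed by -1.38 ± 0.05 (log2) in pkl, -0.99 ± 0.05 in pif4-labelled and -4.14 ± 0.06 in pklpif4-labelled libraries, the last with an adjusted p of 1.35e-84. Its neighbour MAM3 (AT5G23020; chromosome 5, 7718121 to 7721839), which starts 11225 bases on and makes chains of all lengths, went the other way and stood at 3.99, 4.3 and 4.42 FPKM in WT, 18.4, 17.9 and 21.1 in pkl, 16.3, 16.9 and 17.4 in pif4-labelled and 6.83, 8.01 and 7.98 in pklpif4-labelled libraries. All mutant libraries lay above WT, with pkl and the pif4-labelled ones highest and pklpif4-labelled ones between. The log2 change was 2.11 ± 0.08 in pkl (adjusted p = 1.40e-46), 1.96 ± 0.08 in pif4-labelled and 0.83 ± 0.08 in pklpif4-labelled libraries (adjusted p = 6.93e-16). In WT the MAM1 level per length was 58.2 ± 1.34 FPKM and that of MAM3 4.23 ± 0.223, and in the pklpif4-labelled libraries the order was turned, with 3.34 ± 0.285 and 7.61 ± 0.673.

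How far reads can separate these neighbours depends on their sequence. The coding sequences of MAM1 and MAM3 are 83.8% identical over 1512 aligned bases, and the longest run they share is 30 bases. The stretch around that run is shown for both genes (RefSeq, TAIR10.1, plus strand, MAM1 chr5:7704368-7704517 and MAM3 chr5:7719020-7719169), with the 16 of 150 bases that differ in capitals.
MAM1: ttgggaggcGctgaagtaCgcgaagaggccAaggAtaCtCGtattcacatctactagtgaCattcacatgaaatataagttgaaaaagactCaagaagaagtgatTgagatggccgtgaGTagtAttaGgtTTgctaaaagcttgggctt
MAM3: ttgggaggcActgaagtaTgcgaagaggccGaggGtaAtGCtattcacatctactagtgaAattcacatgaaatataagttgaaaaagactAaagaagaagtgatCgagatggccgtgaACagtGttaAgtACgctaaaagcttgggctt
Capitals recur along the whole stretch, and no aligned coding run longer than 30 bases is the same in both genes.

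IPMI-SSU2 (AT2G43100; chromosome 2, 17920660 to 17921689), a small subunit of the isopropylmalate isomerase of the cycle, stood at 17.8, 16.8 and 17 FPKM in WT, 8.59, 8.62 and 7.14 in pkl, 14, 12.4 and 10.7 in pif4-labelled and 3.4, 1.88 and 2.11 in pklpif4-labelled libraries. The 4 groups did not overlap, with the pif4-labelled libraries nearest to WT. Relative to WT, the log2 change was -1.15 ± 0.11 in pkl, -0.51 ± 0.10 in pif4-labelled (adjusted p = 4.43e-05) and -2.82 ± 0.13 in pklpif4-labelled libraries. This gene lies 31610 bases from PIF4, and the leucine-pathway subunit gene IPMI-SSU1 ends 231 bases before it. IPMI-SSU1 changed by 0.24 ± 0.04 in pkl, -0.15 ± 0.04 in pif4-labelled and 0.17 ± 0.04 in pklpif4-labelled libraries. The effect of position near the mutated locus on IPMI-SSU2 was not tested.

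The other small subunit, IPMI-SSU3, and the keto acid carrier of the plastid, BAT5, fell in the pklpif4-labelled libraries by 2.0 ± 0.16 and 2.50 ± 0.15, and the dehydrogenase IPMDH1 by 1.88 ± 0.07. BAT5 also fell in pkl (log2 -0.74 ± 0.13) and in the pif4-labelled libraries (-0.46 ± 0.13), whereas IPMI-SSU3 passed in neither (log2 -0.20 ± 0.14, adjusted p = 0.212, and -0.29 ± 0.14, adjusted p = 0.103). The fall of IPMDH1 in pkl (log2 -0.18 ± 0.06, adjusted p = 0.0158) did not pass with library totals (-0.11), with limma on FPKM (-0.10), without WT replicate 3 (-0.16) or without pkl replicate 1 (-0.16). The remaining members of the step also work in branched-chain amino acid synthesis. BCAT3 (AT3G49680; chromosome 3, 18422649 to 18425693), the plastid aminotransferase that closes the cycle, stood at 35.1, 38 and 33.1 FPKM in WT, 29.9, 29.6 and 31 in pkl, 30.9, 30.1 and 31.2 in pif4-labelled and 31.9, 30.7 and 31.3 in pklpif4-labelled libraries. Every mutant library was a little below every WT library, and the 3 mutant groups overlapped each other. Relative to WT, the log2 change was -0.30 ± 0.05 in pkl, -0.24 ± 0.05 in pif4-labelled and -0.20 ± 0.05 in pklpif4-labelled libraries (adjusted p = 0.000192). The isomerase large subunit gene IPMI-LSU1, the member with the highest level per length at 110.3 ± 1.36 FPKM in WT, fell by 0.48 ± 0.03 in the pklpif4-labelled libraries to 79.9 ± 0.322 FPKM.

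In the core structure, all 11 genes were lower than WT in the pklpif4-labelled libraries, 5 of them at least 2-fold (CYP79F1, CYP83A1, GSTF11, GSTU20 and UGT74C1), with a median log2 change of -0.68. In pkl 5 were lower and 1 higher, and in the pif4-labelled libraries 6 were lower and 1 higher. Among all genes, 26.5% were lower and 27.1% higher in pkl, and 16.2% each way in pif4-labelled libraries. In pklpif4-labelled libraries 27.7% of all genes were lower, and 4.66% at 2-fold. CYP79F1 (AT1G16410; chromosome 1, 5608807 to 5611426), the P450 that turns lengthened methionines into aldoximes, stood at 12, 11.1 and 10.4 FPKM in WT, 2.63, 2.46 and 2.62 in pkl, 3.64, 3.18 and 2.64 in pif4-labelled and 0.0203, 0.019 and 0.0724 in pklpif4-labelled libraries. It was lower in pkl and the pif4-labelled libraries and close to absent from the pklpif4-labelled ones, without overlap with WT. The pklpif4-labelled libraries held 10 counts in all (2, 2 and 6) against 3260 in WT, which is a normalised count 329-fold lower (95% interval 141 to 1010, exact binomial on fragments, counting error only). The fitted log2 change was -8.29 ± 0.21 there, and -9.09 without replicate 3 of that group, while it was -2.19 ± 0.11 in pkl and -1.86 ± 0.11 in the pif4-labelled libraries.

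Its tandem copy CYP79F2 (AT1G16400; chromosome 1, 5605159 to 5607473), which ends 1334 bases before CYP79F1 and acts on long chains, mostly in hypocotyl and root, stood at 3.79, 3.29 and 3 FPKM in WT, 7.54, 6.67 and 7.89 in pkl, 4.65, 5.04 and 4.56 in pif4-labelled and 2.52, 2.28 and 2.22 in pklpif4-labelled libraries. The pkl libraries were highest, the pif4-labelled ones above WT and the pklpif4-labelled ones below it, with no overlap. The log2 change was 1.06 ± 0.11 in pkl (adjusted p = 5.73e-15), 0.45 ± 0.11 in pif4-labelled (adjusted p = 0.000607) and -0.55 ± 0.12 in pklpif4-labelled libraries (adjusted p = 5.08e-05). Root marker sums were above WT in all 3 of these groups, at 213%, 191% and 160% of the WT mean, and their part in the CYP79F2 result was not tested. Within that sum the root hair gene PRP3 had 14.8 ± 2.1 FPKM in WT, 58.7 ± 3.17 in pkl, 25.6 ± 0.271 in pif4-labelled and 38.7 ± 1.19 in pklpif4-labelled libraries. The iron transporter gene IRT1 went against the sum in the pklpif4-labelled libraries, with 2.24 ± 0.399 FPKM against 9.61 ± 0.456 in WT. The coding sequences of both copies are 91.8% identical over 1605 aligned bases, with a longest shared run of 100 bases, so the counting of reads that match both could split or drop them. The stretch that holds this run is shown from both genes (RefSeq, TAIR10.1, plus strand, coding bases within CYP79F1 chr1:5609829-5610089 and CYP79F2 chr1:5606195-5606521, each joined over 2 exons), with the 3 of 150 bases that differ in capitals.
CYP79F1: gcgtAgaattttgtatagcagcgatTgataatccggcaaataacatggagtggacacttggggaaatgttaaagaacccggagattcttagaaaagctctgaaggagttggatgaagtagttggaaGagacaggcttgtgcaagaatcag
CYP79F2: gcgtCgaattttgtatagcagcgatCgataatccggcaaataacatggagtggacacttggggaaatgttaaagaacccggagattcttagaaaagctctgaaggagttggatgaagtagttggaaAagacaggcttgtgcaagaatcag
The 100 bases between the second and the last capital cannot tell the copies apart. Counts of these genes nonetheless parted by genotype, since CYP79F2 kept 2.34 ± 0.162 FPKM in the libraries where CYP79F1 had 10 counts.

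**Figure D3:**
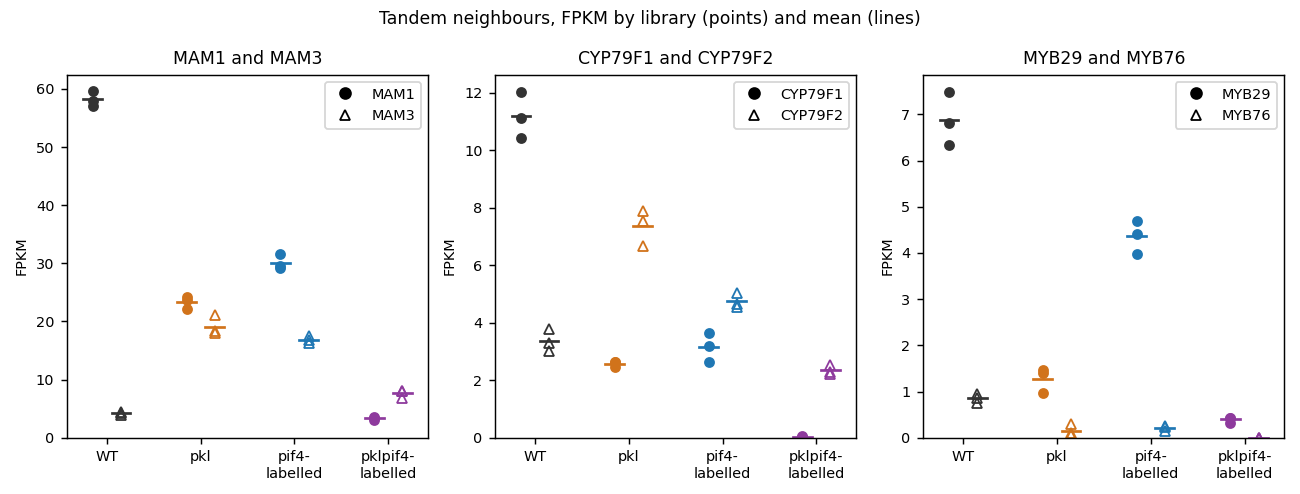
Levels (FPKM, linear vertical axis from 0, scaled separately for each panel) of the neighbouring pairs MAM1 and MAM3, CYP79F1 and CYP79F2, and MYB29 and MYB76 in each of the 12 libraries, by genotype. A filled circle stands for the first and an open triangle for the second gene of a pair, and a line for the mean of 3 libraries. CYP79F1 and CYP79F2 part by genotype, as do MAM1 and MAM3, which change order between WT and the pklpif4-labelled libraries.

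CYP83A1 (AT4G13770; chromosome 4, 7990485 to 7992311), the P450 that takes the aldoximes on, stood at 44.9, 43.4 and 46.2 FPKM in WT, 19.3, 19.5 and 20.5 in pkl, 26.9, 24 and 26.8 in pif4-labelled and 2.43, 2.42 and 2.56 in pklpif4-labelled libraries. All groups were apart, and the pklpif4-labelled libraries were lowest by a wide margin. Against WT it changed by -1.25 ± 0.05 (log2) in pkl, -0.83 ± 0.05 in pif4-labelled and -4.20 ± 0.07 in pklpif4-labelled libraries (adjusted p = 1.03e-80). GSTF11 (AT3G03190; chromosome 3, 735028 to 735987), a glutathione transferase linked to this branch, stood at 3.39, 2.5 and 2.39 FPKM in WT, 1.89, 1.61 and 2.15 in pkl, 1.69, 1.75 and 1.28 in pif4-labelled and 0.381, 0.435 and 0.389 in pklpif4-labelled libraries. The pkl and pif4-labelled libraries lay below WT and overlapped each other, and the pklpif4-labelled ones lay below both. Its fall in the pklpif4-labelled libraries was -2.80 ± 0.32 (adjusted p = 4.29e-13). The falls in pkl (-0.63 ± 0.26, adjusted p = 0.0375) and in the pif4-labelled libraries (-0.85 ± 0.27, adjusted p = 0.00831) were lost without WT replicate 1 (-0.44 and -0.66). The former was also lost with library totals (-0.56) and without pkl replicate 1 (-0.63) or 2 (-0.53), and the latter without pif4-labelled replicate 3 (-0.73).

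GSTU20 (AT1G78370; chromosome 1, 29484269 to 29485290), another glutathione transferase of the branch and the core structure gene with the highest level per length in WT, stood at 69.6, 68.5 and 66.2 FPKM in WT, 35.8, 32.7 and 36.7 in pkl, 49.8, 46.7 and 44.6 in pif4-labelled and 30.5, 27.9 and 28.8 in pklpif4-labelled libraries. The groups ran down from WT through the pif4-labelled and pkl to the pklpif4-labelled libraries without overlap. Its log2 change was -1.02 ± 0.05 in pkl, -0.57 ± 0.05 in pif4-labelled and -1.25 ± 0.05 in pklpif4-labelled libraries. The glucosyltransferase gene UGT74C1 fell in pkl (-1.61 ± 0.06) and further in pklpif4-labelled libraries (-2.58 ± 0.06), with -0.02 ± 0.05 in the pif4-labelled ones (adjusted p = 0.801). Enzymes shared with the indolic branch moved less in the pklpif4-labelled libraries: the gamma-glutamyl peptidase GGP1 by -0.67 ± 0.06, the C-S lyase SUR1 by -0.68 ± 0.06 and the glucosyltransferase UGT74B1 by -0.25 ± 0.06. In pkl these 3 genes did not pass (adjusted p of 0.559, 0.320 and 0.0888), though UGT74B1 passed as higher with library totals (0.18) and with limma on FPKM (0.17). The sulfotransferase genes SOT17 and SOT18 changed by -0.33 ± 0.10 and -0.63 ± 0.07 in the pklpif4-labelled libraries and passed in neither direction in pkl, except that SOT17 passed as higher there with library totals (0.23). BCAT3, IPMI-LSU1, GGP1, SUR1 and UGT74B1 were taken by hand as the 5 members also used outside the branch. Their log2 changes in the pklpif4-labelled libraries lay between -0.68 and -0.20. Of the other 25 tested members, 18 fell at least 2-fold there, against 4.66% of all genes, with a median of -2.50. Those 25 include IPMDH1 (-1.88 ± 0.07), which shares its enzyme name with the leucine pathway relatives IPMDH2 and IPMDH3. With IPMDH1 among the members also used outside the branch, their range would reach -1.88, so the split depends on how roles were assigned.

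Among side-chain genes, AOP2 and FMO-GS-OX1 to 3 were reduced and the rest moved little. Of 7 tested members, 5 were lower in the pklpif4-labelled libraries than in WT (median -2.17), 5 in pkl (median -1.22) and 3 in the pif4-labelled libraries (median -0.25), whereas AOP1 and FMO-GS-OX4 gave 0.11 ± 0.13 and 0.09 ± 0.09 in the pklpif4-labelled libraries. The shares of all genes called lower were 27.7%, 26.5% and 16.2% in the same order of groups. FMO-GS-OX1 (AT1G65860; chromosome 1, 24499066 to 24502745), a flavin monooxygenase that oxidises the methylthio group, stood at 5.08, 5.26 and 5.58 FPKM in WT, 2.84, 2.32 and 1.94 in pkl, 1.82, 2.2 and 2.43 in pif4-labelled and 0.219, 0.269 and 0.358 in pklpif4-labelled libraries. The pkl and pif4-labelled libraries overlapped each other well below WT, and the pklpif4-labelled ones were lower again. On the log2 scale this was -1.22 ± 0.15 in pkl, -1.34 ± 0.16 in pif4-labelled and -4.26 ± 0.21 in pklpif4-labelled libraries. FMO-GS-OX3 (AT1G62560; chromosome 1, 23159823 to 23162649), a sister enzyme, stood at 4.27, 3.85 and 4.62 FPKM in WT, 0.886, 1.23 and 0.439 in pkl, 2.04, 1.92 and 1.72 in pif4-labelled and 0.303, 0.22 and 0.345 in pklpif4-labelled libraries. WT, the pif4-labelled, pkl and pklpif4-labelled libraries followed each other downwards, and pkl varied most. On the log2 scale this was -2.38 ± 0.20 in pkl, -1.20 ± 0.19 in pif4-labelled and -3.90 ± 0.24 in pklpif4-labelled libraries.

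FMO-GS-OX2 followed the pkl label: it fell by 2.09 ± 0.14 in pkl and by 2.17 ± 0.14 in the pklpif4-labelled libraries, and the latter differed from pkl by -0.07 ± 0.16 (adjusted p = 0.755). FMO-GS-OX4 (AT1G62570; chromosome 1, 23169136 to 23172105), which lies in the same cluster, stood at 8.02, 8.02 and 8.02 FPKM in WT, 9.09, 7.24 and 8.08 in pkl, 7.12, 7.04 and 7.5 in pif4-labelled and 8.35, 8.03 and 9.68 in pklpif4-labelled libraries. The levels of the 4 genotypes were close, with the pif4-labelled libraries below WT and overlapping pkl. It was higher in the pklpif4-labelled than in the pif4-labelled libraries (0.28 ± 0.09, adjusted p = 0.00436), the only member to be so, and this call was lost without pklpif4-labelled replicate 3 (0.20). FMO-GS-OX5 fell by 0.24 ± 0.07 in pkl and by 0.30 ± 0.07 in the pklpif4-labelled libraries, but 586 of its exon bases are shared with AT1G12150 on the other strand.

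AOP2 (AT4G03060; chromosome 4, 1351980 to 1353854), named for the dioxygenase that forms alkenyl side chains and annotated by RefSeq as a transcribed pseudogene in the Columbia reference, stood at 3.76, 2.65 and 2.91 FPKM in WT, 1.42, 1.15 and 1.62 in pkl, 2, 1.9 and 1.47 in pif4-labelled and 0.0343, 0.0322 and 0.102 in pklpif4-labelled libraries. WT was highest, pkl and the pif4-labelled libraries overlapped below it and the pklpif4-labelled libraries were near 0. They held 9 counts in all against 543 in WT, a normalised count 60.8-fold lower (95% interval 23.2 to 170). The fitted log2 change was -5.83 ± 0.36, or -6.48 without replicate 3 of that group, and it was -1.23 ± 0.22 in pkl and -0.83 ± 0.22 in the pif4-labelled libraries. Its neighbour AOP1 passed in no comparison, with log2 changes from -0.12 to 0.23. Some exon bases of AOP1 are shared with AT4G03080 on the other strand. The same holds for UGT74C1 with AT2G31800 and for IPMDH1 with AT5G14210. The strand setting of the counting is not given, and the part of these overlapping genes in the 3 results was not tested. AOP3 (AT4G03050; chromosome 4, 1344182 to 1346501), which makes hydroxyalkyl side chains in other accessions, had 0 counts in all 12 libraries.

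The effect of the pkl label depended on the pif4 label for most members. The difference, the pkl effect (log2) within the pif4-labelled background minus that in WT, was negative and past the threshold for 21 members and positive for 3, where 16.5% of all genes were called negative and 15.3% positive. At 2-fold 13 members were negative, against 5.01% of all genes. With library totals, 31.1% of called genes were positive in place of 48.1%. The median over the members was -0.95, and -0.00 over all genes. The root and leaf marker lists moved in this contrast as well. Of the 12 tested root markers 10 were negative, 8 of them at 2-fold, with a median of -1.40. All 10 leaf markers were positive, with a median of 0.83. The part of both lists in the members' differences was not tested. The difference was -4.24 ± 0.33 for CYP79F1 and -3.78 ± 0.48 for AOP2, whose values without pklpif4-labelled replicate 3 were -5.03 and -4.42. For MAM3 it was -3.24 ± 0.11, as the pkl label went with 2.11 ± 0.08 in WT and with -1.13 ± 0.07 in the pif4-labelled background. BCAT4 (-2.18 ± 0.12) and CYP83A1 (-2.12 ± 0.09) followed. CYP79F2 was at -2.06 ± 0.16, MAM1 at -1.77 ± 0.08 and FMO-GS-OX1 at -1.70 ± 0.28. On log2(FPKM + 1), a scale that shrinks low values, the difference did not pass for CYP79F1 (-0.22), FMO-GS-OX1 (-0.38) or MYB29 (-0.15).

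Regulators MYB28 and MYB29 had smaller values than many of the enzymes, with -0.45 ± 0.13 and -0.96 ± 0.25. The fitted value of MYB76 (-3.73 ± 1.78, adjusted p = 0.103) did not pass. It is not read as a size because 1 of its 4 groups held 0 counts, though it enters the median over the members. The positive differences were those of BCAT3 (0.34 ± 0.07), GSTU20 (0.35 ± 0.07) and FMO-GS-OX4 (0.32 ± 0.12, adjusted p = 0.0325). The last did not pass with library totals (0.24), DESeq2 (0.32) or limma on FPKM (0.22), or without any of 6 libraries (0.24 to 0.32).

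**Figure D4:**
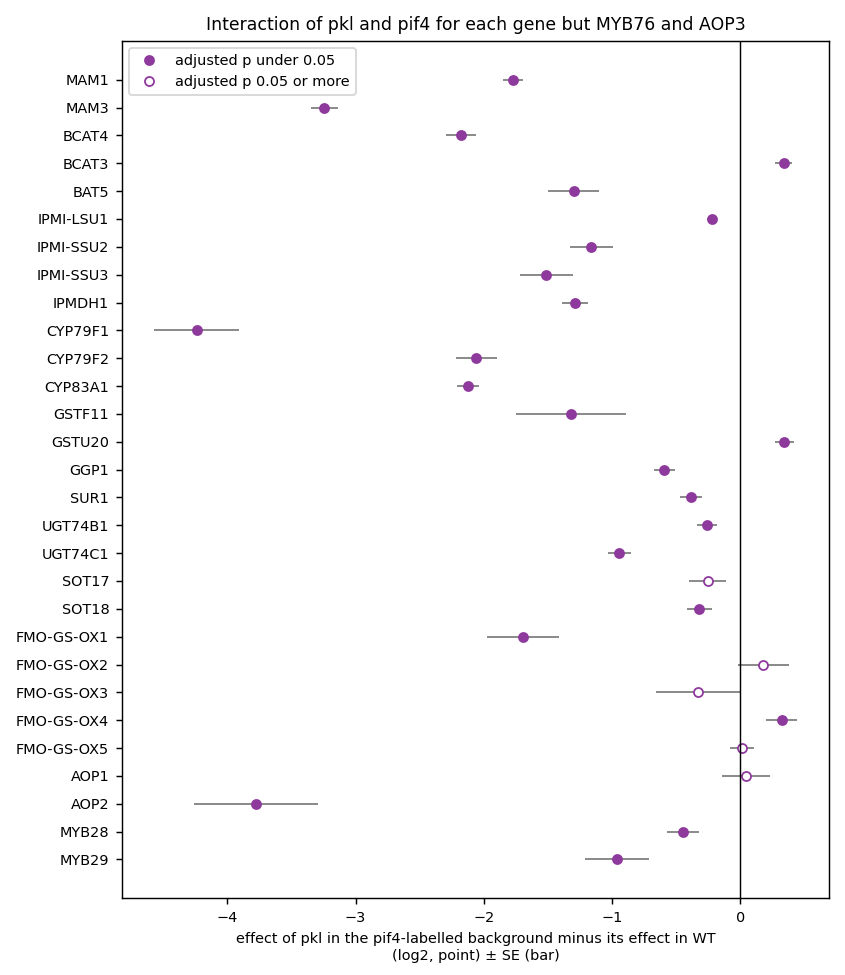
Pkl effect (log2) within the pif4-labelled background minus that in WT (horizontal axis, point, ± SE as a bar) for each gene except MYB76 and AOP3 (rows). Filled points have an adjusted p under 0.05, of which 21 lie left and 3 right of 0, with CYP79F1, AOP2 and MAM3 farthest left.

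Against WT, more genes of the indolic branch were higher than lower in each mutant group, while the leucine pathway relatives changed by -0.15 to 0.50 (log2). Of 15 indolic genes, 11 were higher and 1 lower in pkl, 8 higher and 2 lower in pif4-labelled and 8 higher and 2 lower in pklpif4-labelled libraries, with median log2 changes of 0.50, 0.23 and 0.37. Of all genes, 27.1% were higher and 26.5% lower in pkl, 16.2% each way in pif4-labelled and 27.2% and 27.7% in pklpif4-labelled libraries. Between mutant groups the indolic genes did not all go that way. In pklpif4-labelled libraries 2 were higher and 9 lower than in pkl (19.5% and 20.5% of all genes), and 7 were higher and 3 lower than in pif4-labelled ones (25.5% and 24.7%). In the interaction 7 were negative, as most aliphatic genes were, 4 of them at 2-fold, and the other 8 did not pass (median -0.21). Of all genes 16.5% were negative, and 5.01% at 2-fold. The tryptophan P450 genes CYP79B2 and CYP79B3 changed by 0.23 ± 0.06 and -0.23 ± 0.03 in the pklpif4-labelled libraries, and CYP83B1, the counterpart of CYP83A1, by 0.46 ± 0.04. Of 5 leucine pathway relatives, 4 were higher in pkl (median log2 change 0.42), 2 were lower and 3 did not pass in the pif4-labelled libraries (median -0.09), and 4 were higher in the pklpif4-labelled libraries (median 0.22), where the fifth, IPMS2, gave 0.05 ± 0.05 (adjusted p = 0.383). The summed level per length of the aliphatic steps in the pklpif4-labelled libraries was 47.7% ± 0.258 of the WT mean for chain elongation, 42.0% ± 1.04 for the core structure, 59.7% ± 0.338 for side chains and 25.8% ± 2.54 for the regulators (SD, n = 3). The same sum was 128% ± 0.669 for the indolic genes and 122% ± 0.960 for the leucine relatives. These sums weigh genes by their level. IPMI-LSU1 alone made up 79.9 of 135 FPKM of chain elongation in the pklpif4-labelled libraries and 110 of 282 FPKM in WT. The median log2 change of that step was -2.0. In pkl the regulators stood at 36.7% ± 4.68 and in the pif4-labelled libraries at 93.2% ± 5.02. MYB28 made up 12.6 of the 17.2 FPKM of this sum in the pif4-labelled libraries. There MYB29 and MYB76 changed by -0.69 ± 0.13 and -2.07 ± 0.54 (log2), which the sum hides.

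**Figure D5:**
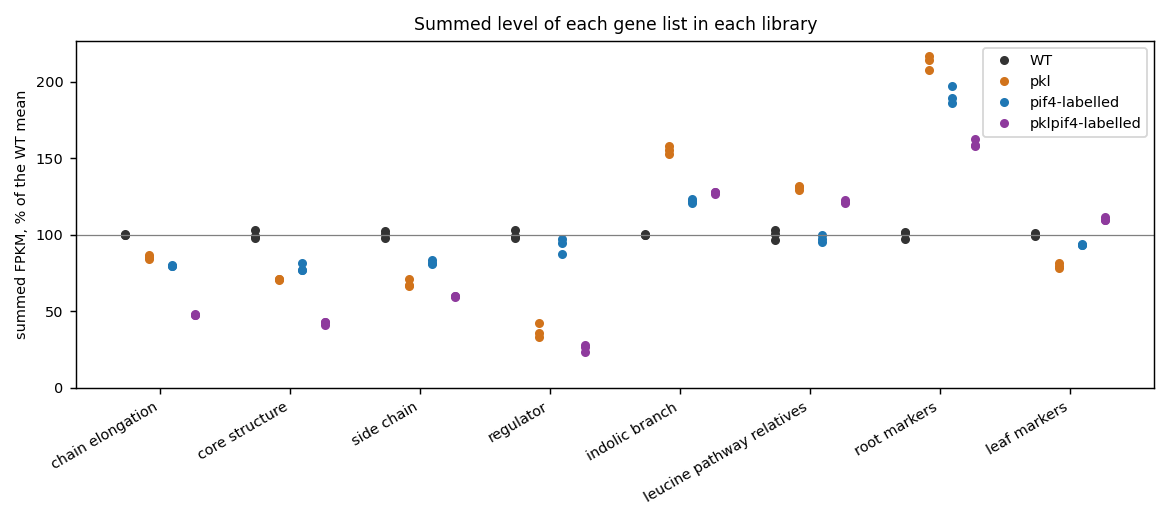
Summed FPKM of each gene list as a percentage of its WT mean (vertical axis, from 0) in each of the 12 libraries, by genotype. The aliphatic steps lie below 100% in the pkl, pif4-labelled and pklpif4-labelled libraries, and root markers above it.

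The bHLH partners of the MYB factors did not fall with them. MYC2 rose in pkl (1.09 ± 0.05), with the pif4 label (0.41 ± 0.05) and with the pklpif4 label (0.23 ± 0.05), MYC4 rose in all 3 as well (0.25 ± 0.05, 0.40 ± 0.05 and 0.13 ± 0.05), and MYC3 gave -0.04 ± 0.05 in the pklpif4-labelled libraries (adjusted p = 0.505). A further list of 12 genes held these partners, regulators and enzymes of sulfur supply, transporters, the cytochrome b5 gene CB5C and GS-OH. Of these, 6 were higher and 2 lower in pkl, 5 and 5 in pif4-labelled libraries, and 2 and 8 in pklpif4-labelled ones. The shares of all genes were those given above, and the 2 lower in pkl and the 2 higher in pklpif4-labelled libraries are smaller shares of the list than 26.5% and 27.2%. GS-OH (AT2G25450; chromosome 2, 10829916 to 10831655), a dioxygenase that hydroxylates the side chain of aliphatic glucosinolates and is not among the 31 genes, stood at 275 ± 4.36 FPKM in WT, 494 ± 7.88 in pkl, 135 ± 4.73 in pif4-labelled and 174 ± 1.44 in pklpif4-labelled libraries. Unlike most of the pathway it rose in pkl (0.78 ± 0.02), and it fell in pif4-labelled (-1.06 ± 0.02) and pklpif4-labelled libraries (-0.68 ± 0.02). PKL lies on the same chromosome, at 10713807 to 10723986, and the effect of position near this locus on GS-OH was not tested. SDI1, a repressor that binds MYB28 when sulfur is short, rose in pkl (0.75 ± 0.15) and in the pif4-labelled libraries (1.65 ± 0.14) and fell in the pklpif4-labelled ones (-0.50 ± 0.16).

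The promoters of the members were searched for motifs of the factor families above, in a window from 250 bases before to 50 bases after the RefSeq start, on both strands. CACGTG, the G-box read by PIF and MYC factors, was in 5 of 31 members (16.1%) and in 7.68% of 27443 promoters of the same length. CACATG, another sequence bound by PIF factors, was in 3 (9.68%, against 12.9%), and ACCNAAC, a MYB-type motif, in 9 (29.0%, against 17.2%). The 3 motifs were counted separately, and no site is both CACGTG and CACATG. In this window 20 members had none of the 3. The members with CACGTG were BAT5, IPMI-LSU1, CYP83A1, SUR1 and FMO-GS-OX3, whose log2 changes in the pklpif4-labelled libraries ranged from -4.20 to -0.48. Of the most reduced members, MAM1, CYP79F1 and MYB29 had none of the motifs, AOP2 had CACATG, and FMO-GS-OX1 had CACATG and ACCNAAC. A match is a description of the sequence and not of binding. The 250 bases before the start are shown for CYP83A1 (minus strand, chr4:7992430-7992679) and SUR1 (minus strand, chr2:8880441-8880690), which hold both CACGTG and ACCNAAC there and differ in how far they fell, with motif matches in capitals (RefSeq, TAIR10.1).
CYP83A1: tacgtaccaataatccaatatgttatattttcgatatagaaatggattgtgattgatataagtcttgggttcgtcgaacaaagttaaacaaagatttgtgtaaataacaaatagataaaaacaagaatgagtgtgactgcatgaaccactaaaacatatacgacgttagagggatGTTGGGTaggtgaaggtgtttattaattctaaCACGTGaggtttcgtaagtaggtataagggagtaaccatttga
SUR1: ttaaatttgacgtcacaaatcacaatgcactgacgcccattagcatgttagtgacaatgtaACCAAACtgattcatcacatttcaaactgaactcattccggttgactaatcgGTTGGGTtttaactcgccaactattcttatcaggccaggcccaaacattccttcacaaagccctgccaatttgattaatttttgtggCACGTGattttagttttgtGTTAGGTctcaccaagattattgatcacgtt
Both hold 1 CACGTG within 50 bases of the start, and SUR1 has more ACCNAAC matches than CYP83A1 in the stretch shown. CYP83A1 fell by 4.20 ± 0.07 and SUR1 by 0.68 ± 0.06 in the pklpif4-labelled libraries.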

How the data were processed

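Total RNA of whole 9-day-old seedlings was poly(A)-selected and sequenced, per the labels' protocols, in 4 genotypes with 3 libraries each (37762216 to 56492669 counts per library). Reads went through fastp, HISAT2 2.1.0 and SAMtools 1.6 on TAIR10, per the submitters' processing notes. How reads were counted (program, strand, several matches) is not given in the sources used here. Raw counts per gene were deposited by the authors with exon positions and lengths. The authors also deposited FPKM, which recomputing from those counts gave back to a relative difference of at most 5.7e-09. The tables of the 12 red-light samples held the same values (0 of 33612 lines differed in each table) and named both conditions, so their 24 columns were not used and those samples were not analysed here.

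Tests on counts used edgeR 4.0.16 (R 4.3.3): filterByExpr (minimum count 10, minimum total 15), TMM factors and a two-sided, robust quasi-likelihood test in 1 model of group means over 12 libraries and 22130 genes, with Benjamini-Hochberg adjustment over all of them. An SE is the log2 change, without its sign, over the square root of the F statistic, not a value edgeR reports, and can fall below the counting error where a group has few counts. Members are in 1 model with no batch term, since no label gives a batch. To look for a library deposited more than once, libraries of a group were compared pairwise: the chi-square per gene was 3.40 to 4.21, or 1.70 to 2.10 if each fragment gave 2 counts, where counting noise alone gives 1. No pair was therefore merged, and this says nothing of whether the libraries are biological samples. The labels call them biological replicates and say no more of their origin, so p-values measure the spread between these libraries.

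Low counts were mostly even (70.9% to 74.3% of counts of 1 to 8 per library, against 49.9% of counts over 100). The floor was therefore 6 counts over a group, or 3 fragments. Intervals are exact 95% binomial ones on fragments and, like floors, cover counting error only.

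Positions are those of the deposited table (TAIR10). Sequences and promoter windows come from the RefSeq annotation of TAIR10.1, read with Biopython 1.88. Of 30 members with a coding sequence, 28 had all coding bases inside the deposited exons and 30 a start and a stop codon. The members and the other lists were chosen with earlier results of these data known. Library values are given for the 3 regulators, the 3 members of each other step with the largest called change of at least 2-fold, those called against the majority of their step, those at the floor and the 5 largest called interactions. Alternatives were RLE factors, library totals, no filter, DESeq2 1.42.0, halved counts, limma 3.58.1 on log2(FPKM + 1), the replicate number as a block and each library left out. The script was tested on simulated data.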

Additional observations from a re-analysis of the deposited data

Results flagged for a closer look

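For 24 members the effect of the pkl label differed between the WT and the pif4-labelled background, by a test of the difference itself (edgeR, adjusted p under 0.05). The values here are the pkl effect (log2) within the pif4-labelled background minus that in WT. Of all genes tested, 16.5% passed with a negative and 15.3% with a positive difference. No group could be searched for a stray library, since each held 3.

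In chain elongation the difference was -1.77 for MAM1, -3.24 for MAM3, -2.18 for BCAT4, -1.30 for BAT5, -0.22 for IPMI-LSU1, -1.16 for IPMI-SSU2, -1.51 for IPMI-SSU3 and -1.29 for IPMDH1. BCAT3 went the other way, at 0.34.

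In the core structure it was -4.24 for CYP79F1, -2.06 for CYP79F2, -2.12 for CYP83A1, -1.32 for GSTF11, -0.59 for GGP1, -0.39 for SUR1, -0.26 for UGT74B1, -0.94 for UGT74C1 and -0.32 for SOT18. GSTU20 was at 0.35. The value of UGT74B1 did not pass without pif4-labelled replicate 1 (-0.21).

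Among side-chain genes it was -1.70 for FMO-GS-OX1, 0.32 for FMO-GS-OX4 and -3.78 for AOP2. Of the regulators, MYB28 was at -0.45 and MYB29 at -0.96.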

How the results depend on the processing

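Across 180 single log2 changes under 19 alternatives each, 3350 values kept their direction and their side of the threshold, 33 lost the call, 9 gained it and 28 changed sign. The counts of members lower than WT ranged over 17 to 19 in pkl and 17 to 19 in the pif4-labelled libraries when single libraries were left out, and was 27 each time in the pklpif4-labelled ones. Members higher in pkl numbered 4 with library totals in place of 2. At 2-fold the higher members in pkl ranged from 1 (without WT replicate 3) to 2. At the adjusted threshold alone, those higher in pklpif4-labelled than in pif4-labelled libraries ranged from 0 (without pklpif4-labelled replicate 3) to 1. The cause of these shifts was not tested.

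All sign changes but the last concern values that passed in neither setting. With library totals the values were 0.022 for IPMI-LSU1, 0.0518 for SOT18 and 0.025 for FMO-GS-OX4 in pkl, 0.0134 for UGT74C1 in the pif4-labelled libraries, and -0.0678 for FMO-GS-OX5 and -0.0401 for AOP1 in the interaction. With limma on log2(FPKM + 1) they were 0.022, 0.0495, 0.0136, 0.014, -0.065 and -0.0509 in the same order, with 0.356 for the interaction of FMO-GS-OX3. Leaving out single libraries gave -0.00505 to 0.0765 for GGP1, -0.0493 to 0.0269 for SOT18 and -0.134 to 0.0324 for FMO-GS-OX4 in pkl, -0.0464 to 0.0018 for UGT74C1 in the pif4-labelled libraries and -0.18 to 0.0226 for FMO-GS-OX2 between pklpif4-labelled libraries and pkl. In the interaction it gave -0.624 to 0.00606 for FMO-GS-OX3, -0.0454 to 0.0719 for FMO-GS-OX5 and -0.0586 to 0.112 for AOP1. The interaction of MYB76 was 0.425 on log2(FPKM + 1) (adjusted p = 0.00936, limma), a scale that compresses levels under 1 FPKM. The main fit gave -3.73, which did not pass, and neither value is read as a size.

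Replicate numbers did not pair the libraries: same-numbered libraries of different groups had deviations correlated at -0.02 to 0.02 (0 of 18 pairs over 0.1), and 2 libraries correlated best with their own number. With the replicate number as a block every count of members called was as without it, such as 27 lower in the pklpif4-labelled libraries. Depth limits MYB76, CYP79F1 and AOP2, which had 0, 10 and 9 counts in the pklpif4-labelled libraries.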
